A study of Mus musculus with 9 samples.

Results

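Imprinted growth regulators are a small group of genes that set the size of embryos, placentas and organs, and 10 of them were followed here across mouse lung organoids: H19, Igf2, Meg3, Dlk1, Grb10, Peg3, Peg10, Cdkn1c, Mest and Plagl1. Members were taken as the genes whose symbol in both comparison tables equalled one of these names, and all 10 were found among the 57010 genes of each table. Bulk RNA was sequenced from 9 mouse libraries: 3 of organoids from normal lung (Normal), 3 from small cell lung cancer (SCLC), and 3 of the latter kind after treatment with GSK (GSK). SCLC is a neuroendocrine tumour of the lung, and an organoid is a culture that grows in 3 dimensions. The labels give no strain, genotype, age, tumour model or number of animals for any group, and they do not say what GSK is, at which dose or for how long it was given. Nothing in them says that the replicates came from separate cultures or animals, so p-values measure the spread between these libraries, which may be technical.

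Most genes are expressed from both parental copies. At an imprinted gene 1 copy is silenced, directly or indirectly, according to a DNA methylation mark laid down in the egg or the sperm. RNA is then made from the maternal or the paternal chromosome only. As a rule, paternally expressed members such as Igf2, Dlk1, Peg3, Peg10 and Mest are associated with growth or with placental and fetal development, whereas maternally expressed members such as H19, Cdkn1c and Grb10 restrain growth. Many of these genes are abundant in the fetus, including the fetal lung, and decline after birth. The tables hold total RNA per gene and do not separate the parental copies, so imprinting itself was not measured.

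The members lie in 7 places of the genome, given here as in the GENCODE M21 annotation of GRCm38, an older build than the one used for alignment. On chromosome 7, H19 and Igf2 are neighbours, Cdkn1c lies in the adjoining Kcnq1 region and Peg3 stands apart: H19 (ENSMUSG00000000031, chr7:142575529-142578143, minus strand), Igf2 (ENSMUSG00000048583, chr7:142650766-142666816, minus strand), Cdkn1c (ENSMUSG00000037664, chr7:143458339-143461050, minus strand) and Peg3 (ENSMUSG00000002265, chr7:6703892-6730431, minus strand). Chromosome 6 carries Peg10 (ENSMUSG00000092035, chr6:4747306-4760517, plus strand) and Mest (ENSMUSG00000051855, chr6:30723547-30748465, plus strand), and chromosome 12 the pair Dlk1 (ENSMUSG00000040856, chr12:109452823-109463336, plus strand) and Meg3 (ENSMUSG00000021268, chr12:109541001-109571726, plus strand). The others are Grb10 (ENSMUSG00000020176, chr11:11930508-12038683, minus strand) and Plagl1 (ENSMUSG00000019817, chr10:13060504-13131694, plus strand). H19 and Meg3 are noncoding, and the other 8 members encode proteins.

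Sequence just upstream of 3 members, Peg3, Mest and Dlk1, is shown as an illustration, chosen after their values were seen from the members that changed in at least 1 comparison. Igf2 changed too and is not printed; its 4 RefSeq windows held 2, 7, 14 and 24 CpG, and Mest has 3 windows, with 8, 17 and 17. Each stretch shown lies just before a start site of a member and is read 5′ to 3′ on that member's strand from RefSeq (GRCm38.p6). CpG dinucleotides, the sites at which DNA can be methylated, are in capitals. The stretch before Peg3 (chr7:6730432-6730577, minus strand) lies between the starts of Peg3 and Usp29, which are transcribed in opposite directions. Those before Mest (chr6:30737800-30738049) and Dlk1 (chr12:109452573-109452822) are on the plus strand.
Peg3 and Usp29: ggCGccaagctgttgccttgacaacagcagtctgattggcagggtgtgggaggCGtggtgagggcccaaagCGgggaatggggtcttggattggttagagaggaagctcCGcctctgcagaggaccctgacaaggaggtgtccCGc
Mest: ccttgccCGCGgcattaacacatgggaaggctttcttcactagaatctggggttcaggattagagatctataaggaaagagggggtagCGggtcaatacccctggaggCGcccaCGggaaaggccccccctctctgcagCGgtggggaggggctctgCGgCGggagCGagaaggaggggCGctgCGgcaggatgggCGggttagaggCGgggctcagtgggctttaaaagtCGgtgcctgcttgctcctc
Dlk1: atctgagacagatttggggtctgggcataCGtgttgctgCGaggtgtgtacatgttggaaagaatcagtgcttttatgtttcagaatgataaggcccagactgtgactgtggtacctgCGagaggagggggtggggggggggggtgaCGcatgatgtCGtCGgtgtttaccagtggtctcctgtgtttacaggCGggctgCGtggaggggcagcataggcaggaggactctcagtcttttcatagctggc
The Peg3 stretch held 5 CpG in 146 bases, the Mest stretch 14 in 250 and the Dlk1 stretch 8 in 250. RefSeq windows from 250 bases before to 50 bases after a start were found for 7 of the 10 members. The motif CG, which reads the same on both strands, occurred 13 times in the Peg3 window, 17 times in the window of the Mest start shown and 9 times in the Dlk1 window, against a median of 7 over 32851 windows of 300 bases. As many CG or more were held by 37.9%, 31.4% and 45.8% of all windows, respectively. The RefSeq windows of Peg3 and Usp29 share 263 bases.

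The values came from the authors' comparisons of SCLC with Normal and of GSK with a control, each over 6 libraries. For every gene the authors gave the mean normalized count over the 6 libraries, a log2 fold change with its standard error, and a p-value, but no value of a single library. Mean levels per group were derived from that mean and fold change and are printed without an SD or a replicate count. The depth of the single libraries is not in these tables. Implied normalized counts summed to 44706821 for Normal and 42007045 for SCLC in the first table, and to 45333553 for the control and 31919648 for GSK in the second. The control levels of the second table equalled the SCLC levels of the first up to a constant factor (SD of the log2 ratio 0.0084 over 13634 genes), so the control was taken to be the SCLC libraries and both comparisons share them. The same log2 ratio of the GSK levels to SCLC had an SD of 2.02.

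The labelled tissues were set against marker genes of the cell types that they could hold. Summed alveolar type II markers stood at 2749525 normalized counts in Normal and 4546 in SCLC, and neuroendocrine markers at 93.5 and 150678. Fibroblast markers were lower in SCLC in 9 of 10 cases and higher in 1 (27683 and 639). Endothelial markers were lower in 4 of 6 (5576 and 71.4), with 5457 of the Normal sum from 1 marker. Immune markers were lower in 4 of 5 tested (1403 and 72.7) and airway markers in 4 of 4 (19400 and 118). The part of these falls in the results of SCLC against Normal was not tested. GSK libraries kept neuroendocrine markers, at 70391 against 162649 in SCLC. They also held marker RNA of other cell types. Fibroblast markers rose in 10 of 10 cases (summed level 689 in SCLC and 54640.5 in GSK), endothelial markers in 6 of 6 (76.3 and 15915) and immune markers in 6 of 6 (78.2 and 18543). Alveolar type II markers rose in 5 of 6 cases, from a summed 4870 to 100317. Of that sum with GSK, 94202 belonged to 1 marker, Lyz2, and the cell type that this RNA came from was not tested. In SCLC 1 other marker of the list, not called, made up 4511 of the 4870. Airway markers rose in 3 of 4 cases, to 6535. In SCLC, 4 of the 6 immune, 2 of the 6 endothelial and 2 of the 10 fibroblast markers lay below a mean of 1 normalized count, which is 3 counts over a group, the floor used throughout; in GSK none of these 3 lists had a marker below it.

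**Figure D1:**
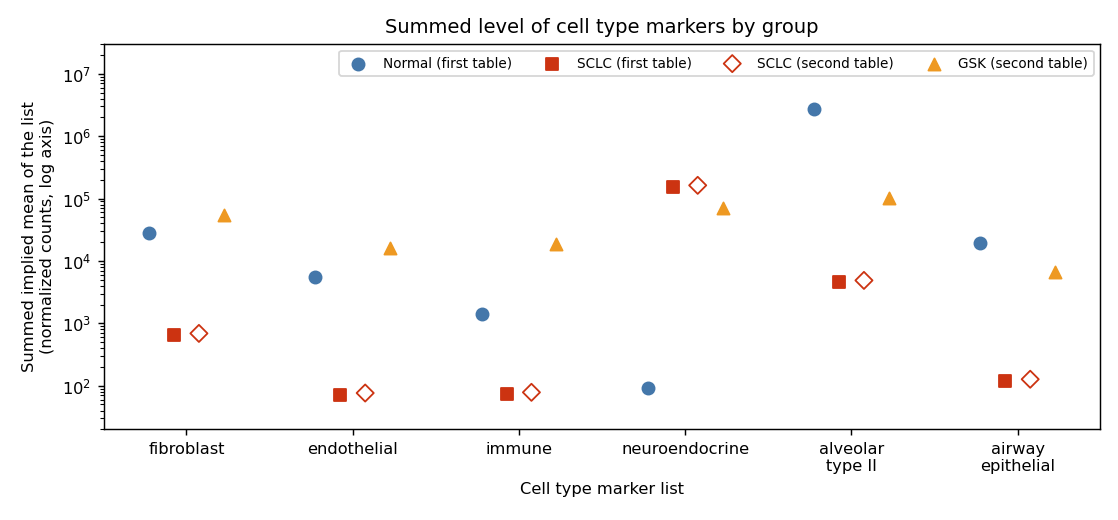
Summed implied mean of each marker list (normalized counts, log axis) for Normal and SCLC in the first table and for SCLC and GSK in the second, 1 symbol a group without error bars. Immune markers stood at 78.2 in SCLC and 18543 with GSK, and neuroendocrine markers at 93.5 in Normal and 150678 in SCLC.

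In SCLC organoids Peg3, Mest, Peg10 and, narrowly, Igf2 rose over normal lung organoids, and 0 members were called lower. These are paternally expressed, but the paternally expressed Dlk1 and Plagl1 were not called. Grb10 had no p-value and could not be called. A gene was called when its adjusted p-value in the authors' deposited table was under 0.05. Of the 9 members with such a value 4 were called, all of them higher, where 50.4% of the 24719 genes tested were called (25.3% higher and 25.1% lower). The share called among the members was thus near that of all genes. At an unadjusted p under 0.05, 1 member was lower, Plagl1. The median log2 fold change of the 9 tested members was 2.61, beside 0.10 over all genes tested. In bulk RNA, fewer cells of a type and less RNA per cell cannot be told apart.

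Peg3, a zinc finger protein of the paternal chromosome known for its part in fetal growth and maternal behaviour, rose from 355 normalized counts in Normal to 7583 in SCLC. Its log2 fold change was 4.42 ± 0.31 (SE), or 21.4-fold, with an adjusted p of 1.52e-44 per the authors' deposited table, the largest change among the 4 members called. Mest, which encodes an enzyme-like protein of the alpha/beta hydrolase fold found in growing mesoderm, rose from 91.5 to 1176, by 3.68 ± 0.32 on the log2 scale (adjusted p 8.65e-29) per the authors' deposited table. Peg10 derives from a retrotransposon, makes a capsid-like Gag protein and is needed for the placenta. Its RNA rose from 409 to 2498 (2.61 ± 0.66, adjusted p 0.00026) per the authors' deposited table. Against a null of a log2 fold change of 1 in place of 0, Peg10 was no longer called (adjusted p 0.0578).

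Igf2, the insulin-like growth factor that drives fetal growth through the IGF1 receptor, stood low in both groups, at 2.24 and 23.8 normalized counts. Its change of 3.41 ± 1.46 per the authors' deposited table passed narrowly, with an adjusted p of 0.0401. That call was lost at a threshold of 0.01, without the filter on low means (adjusted p 0.0544), after centring on the median of abundant genes (0.0533) and against a null of 1 (0.295). Dlk1, a membrane protein related to the Notch ligands that keeps precursor cells immature, had implied means of 88.8 in Normal and 283 in SCLC. Its SE was larger than its log2 fold change (1.67 ± 2.07, 95% interval -2.39 to 5.73, adjusted p 0.521) per the authors' deposited table.

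Plagl1, a zinc finger transcription factor expressed from the paternal copy that can halt the cell cycle, had the largest negative fold change, from 485 to 60.0 normalized counts. At -3.01 ± 1.43 (95% interval -5.82 to -0.21) its adjusted p of 0.0671 per the authors' deposited table missed the threshold.

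Among the maternally expressed members 0 were called, nor was any lower or higher at an unadjusted p under 0.05. H19, a long noncoding RNA that shares its control region with Igf2 and is made from the other parental copy, lay near the floor in Normal at 1.52 and at 13.9 in SCLC. The log2 fold change of 3.20 ± 2.03 had a 95% interval of -0.79 to 7.18 (adjusted p 0.185) per the authors' deposited table. Cdkn1c, an inhibitor of cyclin-dependent kinases that stops growing cells, stood at 1146 in Normal and 769 in SCLC (-0.58 ± 0.59, 95% interval -1.72 to 0.57, adjusted p 0.426) per the authors' deposited table. Meg3, the maternally expressed noncoding RNA of the Dlk1 cluster, stood at 178 and 105 (-0.76 ± 1.91, 95% interval -4.50 to 2.98, adjusted p 0.765) per the authors' deposited table. Grb10 encodes an adaptor that damps signalling from the insulin and IGF1 receptors, and in most tissues it is expressed from the maternal copy, in neurons from the paternal one. It had 1112 and 2102 normalized counts and a fold change of 0.92 ± 1.54, but no p-value, per the authors' deposited table. A fold change without a p-value is what DESeq2, whose results tables these resemble, gives for a gene with an outlying count in a library, and 134 genes (0.398% of those with a fold change) were in that state.

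**Figure D2:**
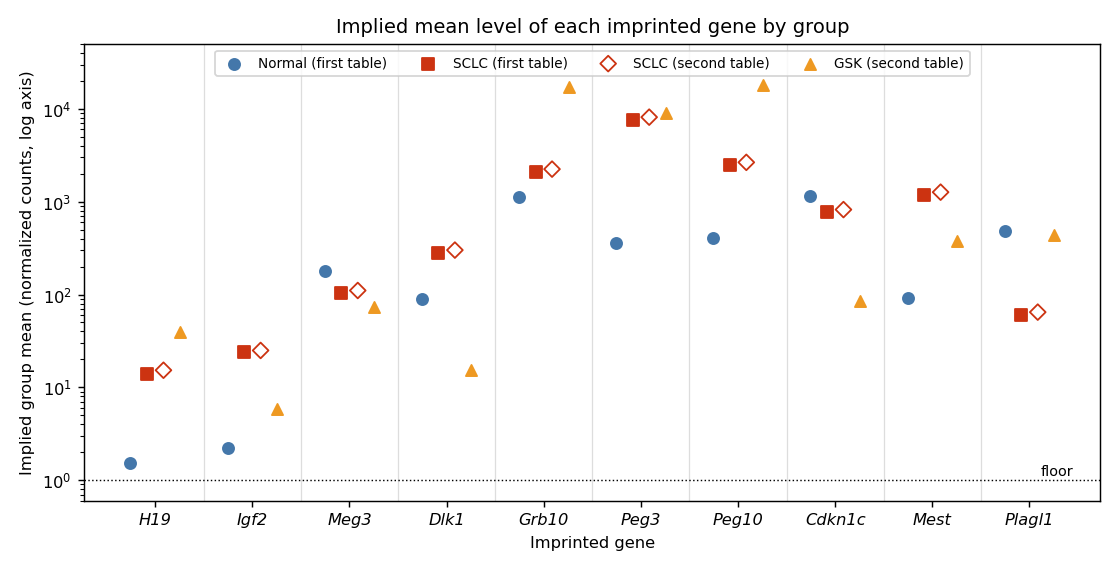
Implied mean level of the 10 genes (normalized counts, log axis) by group, with SCLC shown on the scale of each table, the dotted line at the floor of 1, and no error bars because no library values are in the tables. Peg3 stood at 355 in Normal and 7583 in SCLC, and Dlk1 at 301 in SCLC and 15.5 with GSK.

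With GSK, 3 members fell and 1 rose relative to SCLC: Cdkn1c, Mest and Dlk1 were lower and Peg10 was higher. Of 8 members with an adjusted p in the authors' deposited table, 4 were called, where 37.1% of the 28376 genes tested were called (21.6% higher and 15.5% lower). The median log2 fold change of the 8 was -0.81, beside 0.24 over all genes tested. Of all genes called, 58.2% were higher, 81.6% when the libraries were scaled to equal summed counts and 70.2% when centred on genes with a mean of at least 100. The first of these scalings added 0.51 to every log2 fold change and the second took off the median of abundant genes, -0.25. In the first table the same scalings added 0.09 and took off 0.18, and they turned the direction of no member in either comparison. Of the genes on the lists given further on, members and cell type markers left out, 65 were called with GSK, 39 higher and 26 lower, whereas scaling to equal summed counts gave 52 higher and 12 lower and centring 46 and 20. For lists in which that scaling moved the counts, they are given as counts at equal sums. The rise of fibroblast, endothelial, immune and lung epithelial markers given above runs with each of the following results, and its part in them was not tested.

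Cdkn1c, the kinase inhibitor, fell from 822 normalized counts in SCLC to 84.5 with GSK. Its log2 fold change per the authors' deposited table was -3.28 ± 0.40, 9.73-fold lower, with an adjusted p of 1.19e-14. Dlk1 fell from 301 to 15.5 (-4.28 ± 1.0, adjusted p 0.000109) per the authors' deposited table, the largest change of the members called. Mest fell from 1267 to 373 (-1.77 ± 0.31, adjusted p 1.86e-07) per the authors' deposited table. Against a null of 1 Mest was no longer called (adjusted p 0.0976). Cdkn1c and Dlk1 were still called against it, at adjusted p-values of 3.23e-07 and 0.0094.

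Peg10 was the member that rose, from 2654 to 18158 (2.77 ± 0.64, adjusted p 8.85e-05) per the authors' deposited table. Peg3 stood at 8143 in SCLC and 9050.2 with GSK, and its difference of 0.15 ± 0.32 had a 95% interval of -0.47 to 0.77 (adjusted p 0.752) per the authors' deposited table. Both genes were higher in SCLC than in Normal, and whether their values with GSK differ from each other was not tested.

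Plagl1 stood at 64.6 in SCLC and 441 with GSK (2.77 ± 1.43, 95% interval -0.03 to 5.57, adjusted p 0.117) per the authors' deposited table. Igf2, at 25.0 and 5.86, had -2.09 ± 1.47 (95% interval -4.98 to 0.80, adjusted p 0.274), and its neighbour H19, at 15.3 and 39.9, had 1.38 ± 1.09 (95% interval -0.75 to 3.52, adjusted p 0.336) per the authors' deposited table. For this pair, intervals of several log2 units leave the size and the sign undetermined at these levels. Grb10 had the largest positive fold change, from 2244 to 17013 (2.92 ± 1.52), and Meg3 went from 111 to 72.8 (-0.60 ± 1.81). Both were without a p-value per the authors' deposited table, as were 108 genes (0.301%), so neither is called.

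**Figure D3:**
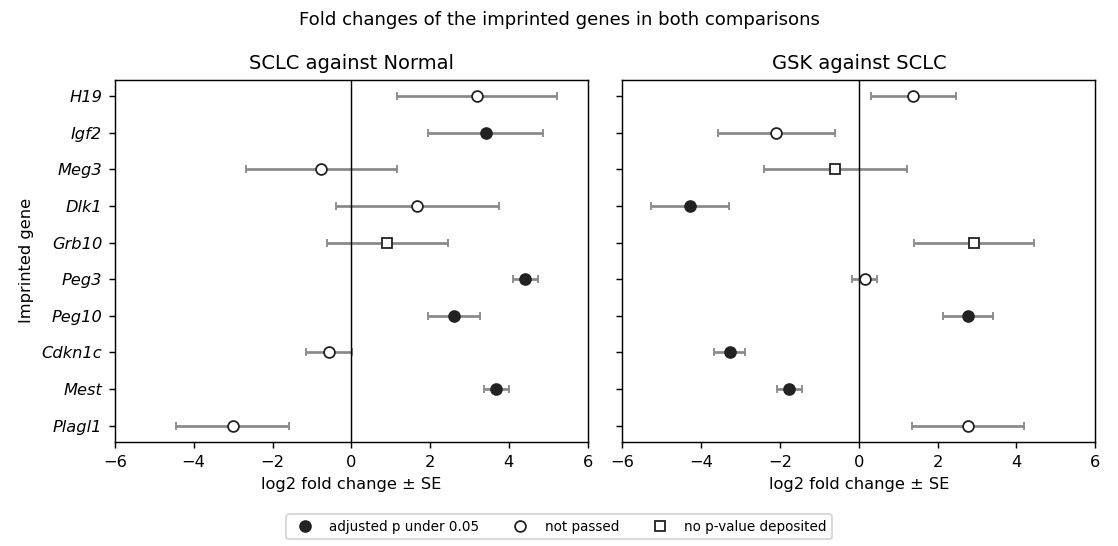
Log2 fold change of each gene with its SE as bars, from the authors' deposited table of each comparison, over 3 libraries against 3; filled circles had an adjusted p under 0.05 and squares had no p-value. In SCLC the 4 filled genes lie to the right of 0, and with GSK Dlk1, Cdkn1c and Mest lie to the left and Peg10 to the right.

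The order of the members by level differed between the groups. Divided by exon length, the normalized counts per kilobase in Normal were highest for Cdkn1c (562), ahead of Grb10 (122), Plagl1 (62.0) and Peg10 (61.3). In SCLC the highest level per kilobase was that of Peg3 (569), followed by Cdkn1c (377), Peg10 (375), Mest (298) and Grb10 (231). With GSK, Peg10 (2724) and Grb10 (1872) led, and Peg3 (679) and Mest (94.5) came next, on the scale of the second table. Igf2 was last of the 10 in all 3 groups, at 0.391, 4.16 and 1.02. The spread over libraries is not in the tables, so it was not tested which neighbours in these orders differ; Plagl1 and Peg10 in Normal, and Cdkn1c and Peg10 in SCLC, had nearly equal levels.

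Exon lengths came from the same M21 annotation. There, 62.8% of the Igf2 exon length is shared with a same-strand gene, Gm49394, 30.7% of that of Cdkn1c with an antisense gene, Gm44732, and 23.1% of that of Mest with Copg2 on the opposite strand. Gm49394 and Gm44732 were listed at 0 in both tables. Copg2, which encodes a coat protein of Golgi vesicles, was not called in either comparison (-0.38 ± 0.24 with an adjusted p of 0.188 in SCLC, -0.45 ± 0.28 with 0.219 with GSK) per the authors' deposited table; after centring it was called lower in SCLC (adjusted p 0.0417). How the authors' counting treated strand and shared exons is not given in the sources used here.

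Several members had a large standard error, a trait that the choice of members did not use. Each SE was ranked among genes whose lower group mean was within 1.5-fold of the member's. In SCLC against Normal, 6 of 10 members had an SE that fewer than 5% of matched genes exceeded: Grb10 (0%), Dlk1 (0.234%), Meg3 (0.623%), Plagl1 (1.27%), Cdkn1c (1.76%) and Peg10 (2.19%). Peg3 (52.4%) and Mest (86.6%) had ordinary ones. With GSK it was again 6 of 10, namely Grb10 (0.0360%), Peg10 (0.313%), Meg3 (0.502%), Plagl1 (1.41%), Igf2 (2.93%) and H19 (3.21%), whereas Cdkn1c (72.1%) was ordinary. Matched on the mean over the 6 libraries, a choice made after seeing the data, the counts were 6 and 4. The SCLC libraries enter both comparisons. Dlk1 and Meg3 lie in 1 cluster, as do Igf2 and H19, so their values need not be independent. Only the 10 members were ranked, and whether their neighbours or other imprinted genes share this trait was not tested. An SE of this kind rises with the spread between the libraries of a gene, and the tables do not show which library or group carries it.

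**Figure D4:**
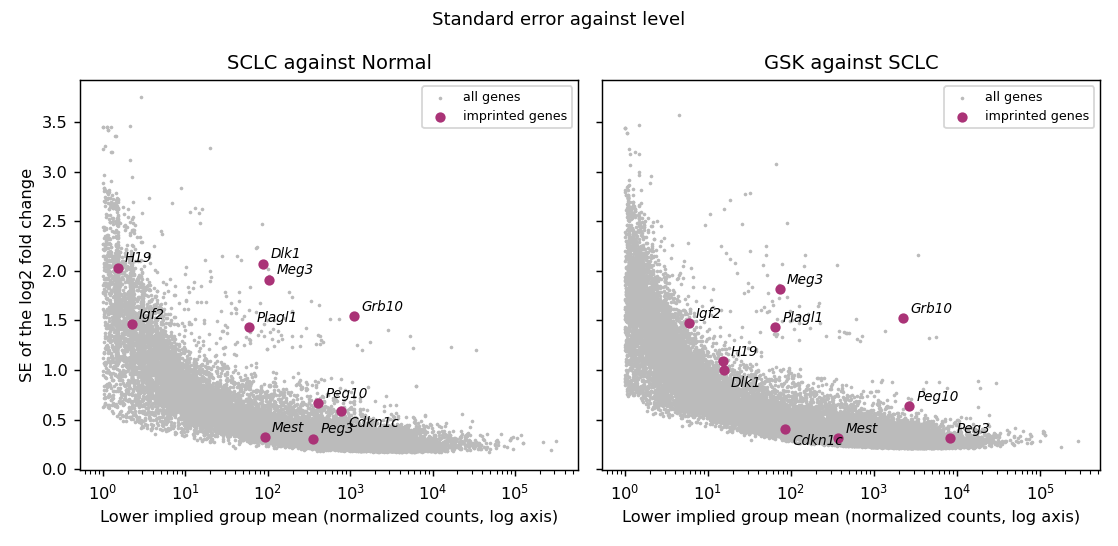
SE of the log2 fold change against the lower of the implied group means (normalized counts, log axis) for the 10 genes and for all genes with a lower mean of at least 1, grey. Grb10, Meg3 and Plagl1 lie at the upper edge of the grey cloud in both panels, whereas Peg3 and Mest lie within it.

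Imprinted genes lie in clusters, and the neighbours of the members were compared next. Of the neighbours, 29 were tested in SCLC against Normal, with 7 higher and 14 lower (72.4% called, beside 50.4% of all genes tested). Their median log2 fold change was -1.60, or -1.18 with genes below the floor at their bound. With GSK 32 were tested, with 13 higher and 3 lower (50% called, beside 37.1% of all genes tested) and a median log2 fold change of 0.79. The same 50.4% in SCLC and 37.1% with GSK are the background to the counts of every list that follows. At the Peg3 cluster, Usp29, the gene that starts beside Peg3, rose from 0.411 to 502 normalized counts in SCLC, at least 502-fold (adjusted p 4.14e-15 per the authors' deposited table). A fold given as at least a value is set against the floor and does not cover the spread between libraries. With GSK it had 0.23 ± 0.41 (adjusted p 0.714) per the authors' deposited table, beside 0.15 ± 0.32 for Peg3. Zim1, the next gene of that cluster, fell in SCLC (-2.54 ± 0.70, adjusted p 0.000863) per the authors' deposited table.

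Around Peg10, 5 of 8 neighbours were lower and 0 higher in SCLC (median -3.32, or -2.29 with genes at their bound; also 0 higher at an unadjusted p under 0.05), while Peg10 itself was higher. The paraoxonase genes Pon3 (-7.05 ± 0.72) and Pon2 (-5.18 ± 0.81), Pon1 (at least 12.1-fold) and Asb4, a ubiquitin ligase subunit (at least 7.43-fold), fell, with adjusted p-values of 1.95e-21, 1.03e-09, 0.0015 and 0.013 per the authors' deposited table. With GSK, 8 of 9 neighbours rose together with Peg10 (median 3.66, or 3.03 with genes at their bound). Asb4 went from 0.315 to 2244, at least 2244-fold higher (adjusted p 1.21e-29), and Tfpi2, a protease inhibitor, to 8.14, at least 8.14-fold (adjusted p 0.00169), per the authors' deposited table. Pon3 rose by 4.68 ± 0.72 (adjusted p 1.48e-09) per the authors' deposited table. Pon1 was at least 30.2-fold higher (adjusted p 5.1e-07) per the authors' deposited table.

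In the Igf2-H19 and Kcnq1 region, which also holds Cdkn1c, 3 of 10 neighbours were higher and 6 lower in SCLC (median -2.46). Th, the enzyme that begins catecholamine synthesis, rose at least 174-fold (adjusted p 6.74e-07), and the transporter gene Slc22a18 (-5.98 ± 0.91), Tspan32 (-5.51 ± 0.64) and the potassium channel Kcnq1 (-4.98 ± 0.41) fell (adjusted p 2.69e-10, 5.98e-17 and 8.76e-33) per the authors' deposited table. With GSK 4 of 11 were higher and 3 lower (median 0.18), at equal sums 4 higher and 0 lower, after centring 4 and 1. Tspan32 (6.54 ± 0.67, adjusted p 1.5e-20), Slc22a18 (2.83 ± 1.14, 0.037), Th (2.44 ± 0.74, 0.00372) and Kcnq1 (1.18 ± 0.50, 0.049) rose per the authors' deposited table, while Cdkn1c of the same region fell. Kcnq1ot1, the noncoding RNA that silences the region on the paternal copy, had 0.44 ± 0.35 (adjusted p 0.291) and 0.18 ± 0.37 (adjusted p 0.745) per the authors' deposited table; it falls outside the rule for named genes and was picked after its values were seen.

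Of the Dlk1-Dio3 cluster, Begain, a gene of synapses, rose in SCLC (2.05 ± 0.44, adjusted p 1.17e-05), and with GSK 0 of 4 tested neighbours were called, nor was any at an unadjusted p under 0.05, per the authors' deposited table; Begain was called higher there at equal sums (adjusted p 0.00138) and after centring (0.0189). Rian, a noncoding RNA made from the same chromosome as Meg3, stood at 80.1 in Normal and 117 in SCLC (0.55 ± 1.67, adjusted p 0.807), and had -1.5 ± 1.14 with GSK (adjusted p 0.318) per the authors' deposited table. Beside Mest, the centrosomal gene Cep41 rose in SCLC (1.66 ± 0.35, adjusted p 1.02e-05) per the authors' deposited table. With GSK it had 0.51 ± 0.32 (adjusted p 0.215) per the authors' deposited table, and was called higher at equal sums (0.00601). Beside Grb10, Ddc, which makes dopamine and serotonin in neuroendocrine cells, rose from 5.20 to 46410.0 in SCLC (13.12 ± 0.68, adjusted p 9.72e-80) and Cobl fell (-1.97 ± 0.48, adjusted p 0.000141) per the authors' deposited table. Phactr2, next to Plagl1, fell in SCLC (-3.30 ± 0.33, adjusted p 2.42e-22) and rose with GSK (2.35 ± 0.37, adjusted p 3.29e-09) per the authors' deposited table, beside -3.01 ± 1.43 and 2.77 ± 1.43 for Plagl1.

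**Figure D5:**
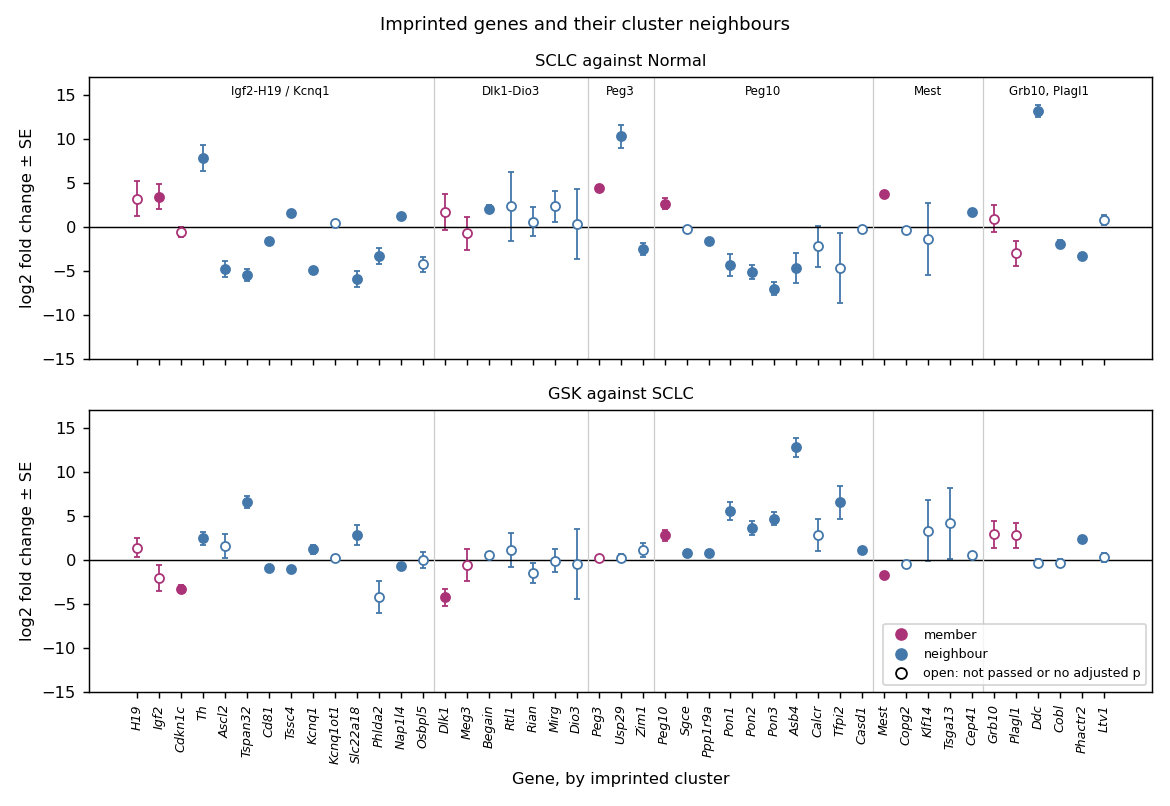
Fitted log2 fold changes with SE bars of the members and their neighbours by imprinted cluster, filled where the adjusted p was under 0.05; fits with a group below the floor, such as Usp29 in SCLC, have no bound on their size. In the Peg10 cluster 5 neighbours are filled below 0 in SCLC and 8 above 0 with GSK.

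Igf2 and Grb10 act on the insulin and IGF receptors, and the other genes of that pathway were counted in both comparisons, with the median log2 fold change of each list in brackets. In SCLC, of 4 tested ligands and receptors Igf1 (at least 19.4-fold, adjusted p 0.00586), Igf1r (-1.99 ± 0.45, 3.29e-05) and Insr (-0.81 ± 0.28, 0.00824) fell, and the orphan receptor Insrr was at least 950.5-fold higher (5e-16), per the authors' deposited table. With GSK, Igf1 (at least 357-fold, 8.85e-23), Igf1r (2.37 ± 0.41, 1.23e-07) and Insrr (1.76 ± 0.54, 0.00431) rose (adjusted p in each bracket) per the authors' deposited table, and Insr had 0.15 ± 0.27 (adjusted p 0.708, or 0.042 at equal sums). Igf1 is made by fibroblasts and macrophages, whose markers rose in the same libraries; their part was not tested. The IGF-binding proteins, which hold IGFs in the extracellular space, and the proteases that cut them were higher in 2 and lower in 6 of 9 cases in SCLC (median -4.29, or -4.26 with genes at their bound). Igfbp7 (-9.87 ± 0.40, adjusted p 6.93e-129), Igfbp6 (-6.93 ± 0.42, 2.47e-59), Igfbp4 (-4.84 ± 0.63, 1.47e-13) and the protease Pappa2 (at least 9.68-fold, 0.000724) fell the most per the authors' deposited table. With GSK 7 of 10 were higher (median 3.66, or 2.98 with genes at their bound), led by Igfbp7 (6.31 ± 0.53, adjusted p 1.26e-30), Pappa2 (at least 5.55-fold, 0.00859), Igfbp3 (4.57 ± 0.93, 6.9e-06) and Igfbp6 (4.2 ± 0.54, 2.28e-13), per the authors' deposited table. The 1 that was lower, named after its values were seen, was Igfbp5 (-2.57 ± 0.35, adjusted p 7.56e-12) per the authors' deposited table. Igfbp5 made up 58526 of the 61523 normalized counts of this list in SCLC, and the sum fell to 24546 with GSK. In the first comparison the sum was 54107 in Normal and 56885 in SCLC. The medians of this list therefore do not describe its total RNA.

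Among proteins that bind Igf2 mRNA or are linked to such proteins, 2 of 6 rose and 4 fell in SCLC (median -3.0). At equal sums 2 were higher and 3 lower. The stem cell factors Lin28a (at least 439-fold, adjusted p 4.03e-13) and Lin28b (at least 43.4-fold, 1.69e-06) were higher, and Igf2bp1 (at least 323-fold, 2.97e-19) and Hmga2 (at least 89.5-fold, 5.76e-12) lower, per the authors' deposited table. With GSK, Lin28b rose by 5.02 ± 0.33 (adjusted p 6.1e-50) and Igf2bp2 by 1.49 ± 0.61 (0.0405), 2 of 5 tested (median 1.49; at equal sums 4 higher and 0 lower, after centring 3 and 0), per the authors' deposited table. Of the adaptors that join receptors to their signalling, 4 of 7 fell in SCLC (median -1.45) and 0 rose, also at an unadjusted p under 0.05. These were Shc1 (-2.46 ± 0.22), Gab1 (-2.38 ± 0.40), Grb14 (-1.91 ± 0.30) and Grb7 (-1.45 ± 0.40), the last 2 being the closest relatives of Grb10, with adjusted p-values of 6.26e-27, 1.1e-08, 2.46e-09 and 0.000943 per the authors' deposited table. With GSK, Irs2 rose (1.29 ± 0.34, adjusted p 0.000702) and Grb14 fell (-1.22 ± 0.33, 0.000911) per the authors' deposited table, 2 of 7 tested (median -0.12). At equal sums Grb14 was no longer called (adjusted p 0.0701).

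Cdkn1c was set beside the other CDK inhibitors. In SCLC, 4 of 6 rose and 2 fell (median 1.54), after centring 3 and 2. Those that rose included Cdkn2a (4.86 ± 0.24, adjusted p 2.51e-85), Cdkn2c (3.41 ± 0.43, 1.57e-14) and Cdkn2d (2.37 ± 0.25, 7.21e-20) per the authors' deposited table. Of the 2 that fell, Cdkn2b (-4.87 ± 0.27, adjusted p 1.06e-68) fell the more per the authors' deposited table. With GSK, 4 of 6 fell (median -1.19; at equal sums 1 higher and 3 lower, after centring 1 and 3), among them Cdkn2c (-1.89 ± 0.39, adjusted p 1.18e-05), Cdkn2a (-1.61 ± 0.28, 7.9e-08) and Cdkn2d (-1.53 ± 0.28, 3.19e-07), per the authors' deposited table. Cdkn1a, a close relative of Cdkn1c, rose by 2.15 ± 0.45 (adjusted p 1.13e-05) per the authors' deposited table. Neuroendocrine markers fell in 5 of 8 cases in the same comparison, and at equal sums in 4.

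Dlk1 belongs with the Notch ligands, of which 5 of 6 rose in SCLC (median 1.84) and 3 of 6 fell with GSK (median -0.78; at equal sums 1 higher and 2 lower, after centring 1 and 2). Dll3, an inhibitory ligand typical of SCLC, rose at least 2740.3-fold (adjusted p 1.92e-22), and Dll4 (3.24 ± 0.74, 4e-05), Dlk2 (1.94 ± 0.58, 0.00249) and Jag2 (1.74 ± 0.33, 3.86e-07) rose per the authors' deposited table. With GSK, Dlk2 (-2.19 ± 0.51, adjusted p 0.00012), Jag1 (-1.90 ± 0.43, 7.45e-05) and Dll3 (-1.15 ± 0.40, 0.0137) fell per the authors' deposited table, as did Dlk1. Dll3 was no longer called at equal sums (adjusted p 0.202) or after centring (0.0629). Plag1, a relative of Plagl1 that can activate Igf2, fell in SCLC (-2.19 ± 0.59, adjusted p 0.000567) and rose with GSK (1.57 ± 0.61, 0.0305) per the authors' deposited table.

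Peg10 is one of a set of genes that descend from the Gag gene of retrotransposons. Of the others, 9 of 13 rose and 1 fell in SCLC (median 2.18), led by Pnma8a (at least 986-fold, adjusted p 7.49e-19), Pnma2 (7.02 ± 0.79, 1.14e-17) and Pnma8b (5.96 ± 0.52, 8.78e-29) per the authors' deposited table. The 1 that fell was Rtl3 (at least 3.58-fold, adjusted p 0.0407) per the authors' deposited table. With GSK 2 of 13 rose and 5 fell (median -0.65), but at equal sums there were 5 higher and 1 lower, after centring 4 and 4. Of these, Rtl4 rose at least 18.9-fold with an adjusted p of 0.00197, whereas Rtl8c (-1.60 ± 0.52, 0.00745), Pnma8b (-1.45 ± 0.33, 7.44e-05) and Pnma2 (-1.29 ± 0.49, 0.0255) fell per the authors' deposited table. Rtl8c and Pnma2 were no longer called at equal sums (adjusted p 0.0819 and 0.203), nor was Pnma2 after centring (0.0815). Rtl8c has near-identical copies, so its counts are uncertain where reads could be split between them. Rtl8a and Rtl8b were called in the same direction as Rtl8c in both comparisons and counted as separate genes. The same signal may therefore enter the counts of this list repeatedly.

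The marks at imprinted genes are kept by DNA methyltransferases and by zinc finger proteins that call in Trim28. In SCLC, 10 of 14 such factors rose and 4 fell (median 0.75), after centring 8 and 4. Uhrf1, which brings the maintenance methyltransferase to replicating DNA, rose (3.36 ± 0.37, adjusted p 1.41e-18), as did Tet1, which starts the removal of methylation (6.84 ± 0.61, 1.25e-27), per the authors' deposited table. Zfp57, which binds methylated imprinting control regions, fell from 1608 to 19.1 normalized counts (-6.39 ± 0.69, adjusted p 3.72e-19), and Dnmt3l was at least 19.6-fold lower (4.42e-06), per the authors' deposited table. With GSK 3 of 14 rose and 3 fell (median -0.02), but at equal sums there were 6 higher and 1 lower, after centring 4 and 3. Zfp57 rose from 20.3 to 675 (5.06 ± 0.69, adjusted p 4.22e-12), Dnmt3l was at least 5.31-fold higher (0.0446) and Tet2, a relative of Tet1, rose (1.42 ± 0.29, 8.26e-06) per the authors' deposited table. Trim28 fell (-2.01 ± 0.22, adjusted p 1.26e-17) per the authors' deposited table. Methylation itself was not measured.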

How the data were processed

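RNA from 9 mouse organoid libraries, 3 each of Normal, SCLC and GSK, was sequenced after stranded mRNA library preparation, per the labels' protocols. Alignment used STAR 2.7.9a and GRCm39, per the submitters' processing notes; the sources used here name neither the counter, the annotation nor the tool for differential expression. The deposited tables follow the layout of DESeq2 output, per the file headers, and give a signal column in which the authors put each gene's mean normalized count over 6 libraries. The authors also deposited a log2 fold change and its SE, a score that equals their ratio, and an unadjusted and a Benjamini-Hochberg adjusted p-value. Because no library values are given, the planned count test could not be run, and the authors' adjusted p under 0.05 over all genes of a table was the test.

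Computed here with Python 3.11.15, pandas 2.3.3 and scipy 1.17.1 were group means (from the mean and the fold change, the groups being of equal size), intervals of 1.96 SE, bounds against a floor mean of 1, SE ranks, levels per kilobase of M21 exons, CpG counts, and the alternatives of the closing section. The calculations were tested on simulated data. The depth of single libraries is unknown, which limits precision at low means.

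All 10 members are reported. Of every other list, up to 4 genes with the largest absolute fold change among those called were eligible to be named. All were eligible where 5 or fewer were measured. Kcnq1ot1, Igfbp5, Rtl8a, Rtl8b and the marker Lyz2 are exceptions, named after their values were seen. Marker lists are otherwise given as counts and sums. Genes without symbols were named by identifier, as Rian was. Members and lists were chosen with earlier results of these data known.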

Additional observations from a re-analysis of the deposited data

How the results depend on the processing

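Several alternatives were run. A threshold of 0.01, no filter on low means, a mean of at least 10 and a null of 1 left every log2 fold change unchanged. Under these no direction could turn. Scaling to equal summed counts and centring on genes with a mean of at least 100 shifted every log2 fold change. Under both of these, all 10 members kept their direction in each comparison. Of 120 values of single members under these settings, 114 kept their status and 6 lost a call. The 6 were 4 of Igf2 and 1 of Peg10 in SCLC, and 1 of Mest with GSK, each given with its gene. The 114 include values without an adjusted p, which had no side of the threshold to keep. These were all values of Grb10, those of Meg3 with GSK, and H19 in SCLC at a mean of at least 10. The null of 1 on the log2 scale moved the counts most. In SCLC it left 2 members called instead of 4, 53 of the listed genes instead of 92 and 6340 of all genes instead of 12453 (2949 higher and 3391 lower). With GSK it left 3 members instead of 4, 25 listed genes instead of 65 and 3724 of all genes instead of 10533 (3161 higher and 563 lower). No paired analysis was possible because the tables hold no value of a single library. For the same reason leaving out a replicate, other size factors and a second count test were not run. Low means limit Igf2 and H19, and large standard errors limit Dlk1, Meg3, Grb10 and Plagl1.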

Other observations

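Imprinted genes outside the members' clusters were also counted. In SCLC 9 of 21 rose and 4 fell (median 0.48 on the log2 scale), after centring 6 and 5. Nap1l5, a nucleosome assembly protein gene of the paternal copy, rose from 18.5 to 778 normalized counts (5.40 ± 0.62, adjusted p 3.1e-17) per the authors' deposited table. Dcn, a matrix proteoglycan of fibroblasts, fell (-6.70 ± 0.70, adjusted p 1.31e-20), as did Sfmbt2 (-3.42 ± 1.0, 0.00171) and Peg12 (-3.13 ± 1.17, 0.0172), per the authors' deposited table. With GSK 6 of 22 rose and 6 fell (median -0.25); with libraries scaled to equal summed counts there were 7 higher and 4 lower, after centring 7 and 5. Snrpn, which encodes a spliceosome protein of the Prader-Willi region, fell from 584 to 1.35 (-8.76 ± 1.08, adjusted p 1.21e-14) per the authors' deposited table, and Peg12 of the same region rose from 4.63 to 109 (4.56 ± 0.98, 2.44e-05). Rasgrf1, an activator of Ras, fell (-5.39 ± 1.18, adjusted p 3.31e-05), and Dcn rose (6.58 ± 0.68, 3.06e-20), per the authors' deposited table. Fibroblast markers rose in the same libraries, and their part was not tested.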
